A study of Mus musculus with 2 samples.

Results

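The miRNAs described here are mature miRNAs with roles in the skeleton and miRNAs encoded among the Hox genes, measured in exosomes that mesenchymal stem cells of mouse bone marrow (BMSCs) had released. They were taken by name, from a list drawn up with earlier results of these arrays known. They are both arms of miR-140 (mmu-miR-140-3p and mmu-miR-140-5p), mmu-miR-455-3p, the miR-10 family (mmu-miR-10a-5p and mmu-miR-10b-5p) and the miR-196 family (mmu-miR-196a-5p and mmu-miR-196b-5p), which makes 7 of the 1881 mouse miRNAs on the array. Exosomes are small vesicles that cells release, and those profiled were precipitated from BMSC culture medium after 72 h. The first group was cultured in normoxia, with an oxygen level that the labels do not state, and the second group in a hypoxic workstation at 0.2% oxygen. Both came from purchased BMSCs of C57BL/6 mice, with no genetic change and no other agent named. RNA of each preparation was hybridized to 1 Agilent array with 1 colour (Cy3), so there is 1 array per condition, no spread between cultures can be computed and no test was run. The errors printed with the values are over replicate spots inside an array, so they hold no variation from culture, vesicle isolation or labelling.

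A mature miRNA guides a silencing complex to mRNAs, mainly through its seed, the bases next to its 5′ end. miR-140 lies within the Wwp2 gene, is best known from cartilage, and both arms of its hairpin are used as mature miRNAs. miR-455 lies within the collagen gene Col27a1 and is likewise known from developing cartilage. The miR-10 and miR-196 genes sit inside the Hox clusters, whose transcription factors set position along the body axis, and members of both families repress Hox mRNAs. Bone marrow mesenchymal cells are precursors of skeletal cells.

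The mature sequences below carry the family relations on which the comparison of near-identical members rests. They are from RefSeq on the GRCm38.p6 assembly, 6 of the 7 members had an entry, and the capitals mark bases 2 to 8, the seed.
mmu-miR-140-3p: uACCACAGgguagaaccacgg
mmu-miR-455-3p: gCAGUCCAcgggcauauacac
mmu-miR-10a-5p: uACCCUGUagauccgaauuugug
mmu-miR-10b-5p: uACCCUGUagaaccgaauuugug
mmu-miR-196a-5p: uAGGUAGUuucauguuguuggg
mmu-miR-196b-5p: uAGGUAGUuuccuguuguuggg

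miR-10a-5p and miR-10b-5p have the same seed and are identical at 22 of 23 bases, with the substitution U12A, in which the base of miR-10a-5p stands first and positions are counted from the 5′ end. miR-196a-5p and miR-196b-5p also share their seed and are identical at 21 of 22 bases, with A12C as the difference. The mature miR-140-3p lies at chr8:107551288-107551308 on the plus strand, inside Wwp2, and miR-455-3p at chr4:63256904-63256924 on the plus strand, inside Col27a1. miR-10a-5p lies at chr11:96317186-96317208 on the plus strand within the span of Hoxb3, between Hoxb5 and Hoxb4, and miR-10b-5p at chr2:74726074-74726096 on the plus strand within the spans of Hoxd3 and Hoxd4. miR-196a-5p comes from a pair of genes, Mir196a-1 at chr11:96265187-96265208 on the plus strand between Hoxb13 and Hoxb9, and Mir196a-2 at chr15:102973365-102973386 on the plus strand between Hoxc10 and Hoxc9. miR-196b-5p lies at chr6:52230129-52230150 on the minus strand, between Hoxa9 and Hoxa10.

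The values are the scanner software's processed signal, an intensity per spot after background subtraction, which falls below 0 where a spot was dimmer than its background. The members had 16 probes with 210 spots on each array, and spots that the software flagged as outliers, 5 of these in normoxia and 10 in hypoxia, were left out. Detection of a probe required over 50% of its remaining spots to be well above background, and detection of a miRNA required 1 such probe. Of all 1881 miRNAs, 225 were detected in normoxia, 199 in hypoxia and 180 on both arrays. Replicate spots varied more in hypoxia, where the software's median coefficient of variation was 15.8% and it marked the array for evaluation, than in normoxia, where it was 9.68%. The slide was shared by both arrays, and the effect of position on it cannot be told apart from that of the condition. Nor can a difference in vesicle number and one in RNA per vesicle be told apart in such samples.

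Of the 7 members, 4 were detected on both arrays, namely both arms of miR-140, miR-10a-5p and miR-196a-5p, and the other 3, miR-455-3p, miR-10b-5p and miR-196b-5p, were detected on neither. After quantile normalization, which gives both arrays the same distribution of probe signals, the log2 difference (hypoxia minus normoxia) was 0.22 ± 0.033 (SE over spots) for mmu-miR-140-3p, −0.52 ± 0.043 for mmu-miR-140-5p, 0.44 ± 0.055 for mmu-miR-10a-5p and 0.53 ± 0.060 for mmu-miR-196a-5p. None of these 4 reached a 2-fold difference in either direction. Among all 180 miRNAs detected on both arrays, 18.3% were at least 2-fold higher in hypoxia and 10.0% at least 2-fold lower. The median log2 difference was 0.33 over the 4 detected members and 0.17 over all 180 miRNAs. The directions of 140-3p and 10a-5p depended on the scaling, as given below. For 196a-5p the value was higher in hypoxia under 5 of the 6 scalings. At −0.0060 it was within its SE of no difference without normalization, and its probes differed, as given below. In turn, 140-5p was lower in hypoxia under 5 of the 6 scalings and, at −0.013, within its SE of no difference under the sixth, the 75th percentile of all probes. Only 9.96% of all miRNA spots in normoxia and 8.59% in hypoxia were well above background. The 75th percentile of all probes thus falls among undetected probes, so this scaling matches the arrays on background rather than on miRNA signal.

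**Figure D1:**
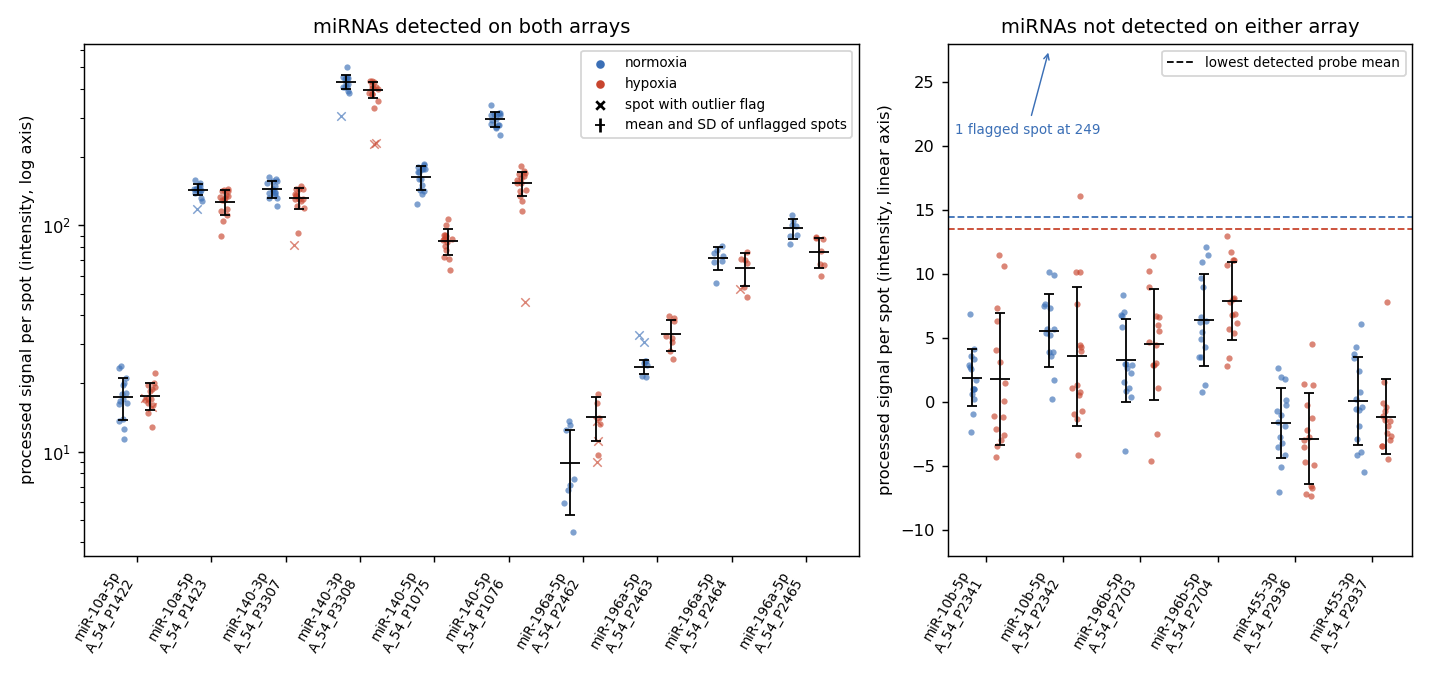
Processed signal (intensity) of every spot of each member's probes in normoxia (blue) and hypoxia (red) before normalization, on a log axis for the 4 detected miRNAs and a linear axis for the 3 that were not; crosses are outlier spots, bars the mean ± SD of the other spots, dashed lines the lowest mean of any detected probe. Both probes of miR-140-5p show separate clouds of spots for the 2 arrays, those of miR-140-3p overlap, and every probe mean in the right panel lies under the dashed lines.

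For miR-140-5p, the spots of each probe separated the arrays before normalization, when the hypoxia array as a whole was dimmer. Its probe A_54_P1076 read 295 ± 23.1 (processed signal, SD, n = 15 spots; lowest 251, median 296, highest 341) in normoxia. In hypoxia it gave 154 ± 19.1 (n = 14 spots; lowest 115, median 156, highest 183). Every hypoxia spot was thus dimmer than every normoxia spot. Probe A_54_P1075 gave 163 ± 19.4 (n = 15; 124 to 188, median 172) in normoxia against 85.1 ± 10.9 (n = 15; 63.5 to 106, median 87.0) in hypoxia, again without overlap. How many of all detected probes separate the arrays in this way was not counted. Before normalization both probes were 1.92-fold lower in hypoxia, and after quantile normalization the miRNA was 1.43-fold lower.

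For miR-140-3p, the other arm of the same hairpin, the means of each probe lay closer together before normalization. Its probe A_54_P3308 gave 432 ± 30.2 (n = 14 spots; 385 to 501, median 436) in normoxia and 398 ± 31.6 (n = 13; 330 to 437, median 404) in hypoxia. Probe A_54_P3307 gave 145 ± 12.2 (n = 15; 122 to 165, median 144) in normoxia and 132 ± 14.4 (n = 14; 92.7 to 149, median 133) in hypoxia. The spots of both arrays overlapped for each probe. The log2 difference of the signals was −0.12 and −0.13 before normalization and 0.13 and 0.31 after it, so the sign follows the scaling. Which arm differed more also follows it: with the 75th percentile of all probes miR-140-3p was at 0.80 and miR-140-5p at −0.013, and with outlier flags ignored they were at 0.57 and −0.32.

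The gap between the arms did not depend on a common scaling factor. The log2 difference of miR-140-3p minus that of miR-140-5p was 0.73 ± 0.054 (SE over spots) after quantile normalization and 0.81 under each of the other 5 scalings, which move both arms alike. Over the 4 pairings of a 3p probe with a 5p probe it ran from 0.59 to 0.88 after quantile normalization and from 0.81 to 0.82 before it. The 3p arm was therefore higher relative to the 5p arm in hypoxia than in normoxia for every pairing on this pair of arrays. With 1 array per condition, a spread of this gap between cultures is unknown.

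Several other hairpins had a gap of that size. Both arms were detected on both arrays for 10 hairpins including miR-140, and the absolute gap between their log2 differences had a median of 0.98 and ran from 0.14 for miR-199a to 1.74 for miR-34c. It was larger than that of miR-140 in 6 hairpins after quantile normalization and in 5 before it. With normexp, another background correction, 2 of the 10 were wider, and with a stricter detection rule, under which no spot of a probe could be at background, 3 of 7 were. The 3p arm had the higher log2 difference in 8 of the 10 hairpins, miR-140 among them, and in 9 before normalization. In let-7d, miR-21a and miR-652 the 3p arm lay above the 5p arm by 1.07, 0.69 and 1.02, as in miR-140, whereas in miR-99b it lay below by 0.93 (−0.93).

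**Figure D2:**
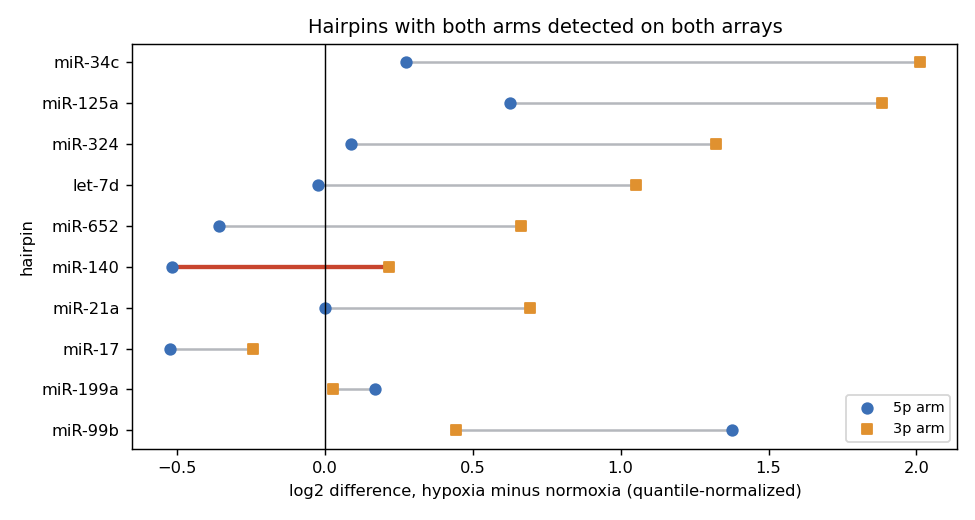
Log2 difference (hypoxia minus normoxia, quantile-normalized) of the 5p arm (circles) and the 3p arm (squares) of the 10 hairpins whose arms were both detected on both arrays, ordered by the gap between arms, with miR-140 in red. miR-140, from −0.52 to 0.22, lies among the other hairpins, 6 of which have a wider gap.

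Of the miR-10 family only miR-10a-5p was detected. Its probe A_54_P1423 gave 144 ± 7.98 (n = 14 spots; 128 to 158, median 145) in normoxia and 128 ± 16.2 (n = 15; 89.8 to 146, median 133) in hypoxia, with overlapping spots. Probe A_54_P1422 was close to the limit of detection, with 17.5 ± 3.73 (n = 15; 11.3 to 23.8) in normoxia and 17.7 ± 2.46 (n = 13; 12.8 to 22.3) in hypoxia. In each condition 11 of its spots were well above background. Its log2 difference was 0.016 before normalization and 0.60 after it, and that of A_54_P1423 was −0.18 and 0.28. The quantile-normalized value of miR-10a-5p thus rests in part on a probe whose signal was alike on both arrays.

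The probes for miR-10b-5p, which differs from miR-10a-5p at 1 base, stayed at background. A_54_P2341 gave 1.91 ± 2.24 in normoxia and 1.82 ± 5.16 in hypoxia. A_54_P2342 gave 5.58 ± 2.84 (n = 14 spots) and 3.57 ± 5.43 (n = 15 spots, of which 1 was well above background, at 16.1). A further normoxia spot of A_54_P2342 read 249 and carried an outlier flag, so it was left out. The lowest mean signal of any detected probe was 14.5 in normoxia and 13.5 in hypoxia, and both miR-10b-5p probes lay under it.

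The miR-196 family showed the same split, with miR-196a-5p detected and miR-196b-5p not. Of the 4 probes for miR-196a-5p, 3 were detected on both arrays. A_54_P2465 gave 97.2 ± 9.79 (n = 7 spots; 82.9 to 111) in normoxia and 76.5 ± 11.9 (n = 7; 59.5 to 88.5) in hypoxia. A_54_P2464 gave 71.8 ± 8.25 (n = 7; 55.8 to 81.1) and 64.6 ± 10.9 (n = 6; 48.4 to 75.9). For both the spots overlapped and the hypoxia mean was the lower one before normalization.

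A_54_P2463 went the other way, with 23.7 ± 1.73 (n = 6 spots; 21.4 to 25.2) in normoxia and 33.1 ± 5.18 (n = 8; 25.7 to 39.7) in hypoxia. Its spots did not overlap, but 2 normoxia spots with an outlier flag, at 32.6 and 30.4, had been left out and would overlap. A_54_P2462 was not detected on either array, with 8.86 ± 3.60 (n = 8) in normoxia and 14.3 ± 3.17 (n = 5) in hypoxia. The log2 differences of the 3 detected probes were 0.22, 0.40 and 0.97 after quantile normalization and −0.35, −0.15 and 0.48 before it. All 3 detected probes of miR-196a-5p thus read brighter in hypoxia after quantile normalization, A_54_P2463 most. Before normalization A_54_P2463 was the only brighter one among them.

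miR-196b-5p, which differs from miR-196a-5p at 1 base, gave 3.26 ± 3.23 and 6.44 ± 3.58 with its 2 probes in normoxia and 4.51 ± 4.34 and 7.93 ± 3.06 in hypoxia. Not 1 of its spots was well above background. The same held for miR-455-3p, whose probe means ran from −1.62 to 0.0787 in normoxia and from −2.87 to −1.13 in hypoxia. miR-455-3p was thus not detectable at this signal level on either array, which does not show that it was absent.

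Agreement between probes differed among the 4 detected members. The log2 differences of the probes of 1 miRNA spanned 0.11 for miR-140-5p, 0.18 for miR-140-3p, 0.32 for miR-10a-5p and 0.76 for miR-196a-5p after quantile normalization. The median span was 0.15 over all 115 miRNAs for which several probes were detected in both conditions, and 3 of them had a wider one than miR-196a-5p. Before normalization the span was 0.0016 for miR-140-5p and 0.013 for miR-140-3p, against a median of 0.092. The miR-140 probes thus read alike before normalization, though the span of miR-140-3p was above the median after quantile normalization. The miR-196a-5p probes were among the least alike.

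The overall level of the hypoxia array was lower before normalization, and the scaling set the sign of 3 members. For miR-196a-5p the negative value lay within its SE of no difference. The median log2 difference of all 180 miRNAs was 0.17 after quantile normalization, −0.27 without normalization, −0.14 with scaling to the hybridization spike-ins, 0.21 with the labelling spike-ins, 0.050 with the 75th percentile of the probes that both arrays detected and 0.66 with that of all probes. The labelling spike-ins themselves were lower in hypoxia, with a log2 difference of −0.47, and the hybridization spike-ins were at −0.12. Across these 6 scalings mmu-miR-140-5p ran from −0.94 to −0.013, mmu-miR-140-3p from −0.13 to 0.80, mmu-miR-10a-5p from −0.080 to 0.85 and mmu-miR-196a-5p from −0.0060 to 0.92. The upper end of every range came from the 75th percentile of all probes, which falls among undetected probes. Apart from quantile normalization, each of these scalings shifts every miRNA by 1 constant, so a value relative to the median of all miRNAs is the same under all 5 by construction. Relative to that median, the value under quantile normalization and the value shared by the other 5 were −0.68 and −0.67 for miR-140-5p, 0.05 and 0.14 for miR-140-3p, 0.27 and 0.19 for miR-10a-5p and 0.36 and 0.26 for miR-196a-5p. The small positive value of miR-140-3p also changed sign, since with the brightest probe alone it was 0.13 against a median of 0.16.

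**Figure D3:**
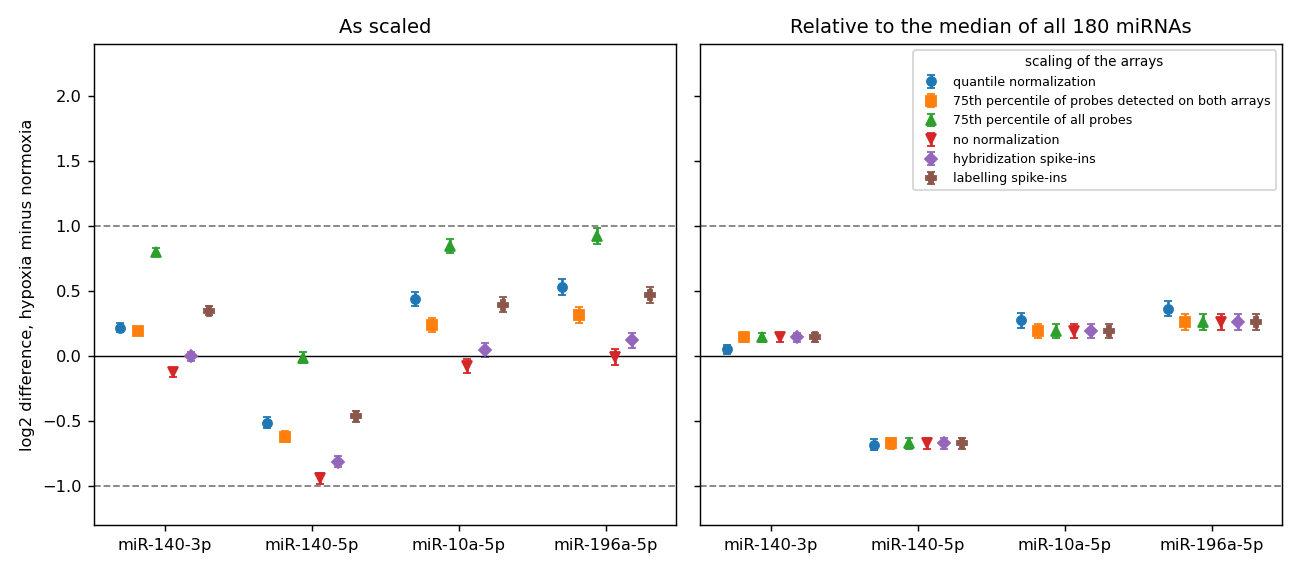
Log2 difference (hypoxia minus normoxia) of the 4 detected members under 6 scalings of the arrays, as scaled on the left and after subtracting the median of all 180 miRNAs on the right; bars are the SE over spots, dashed lines mark 2-fold. On the left every member moves with the scaling, miR-140-5p from −0.94 to −0.013; on the right 5 of the 6 points of each member coincide by construction, and the quantile-normalized point of miR-140-5p is at −0.68 against −0.67 for the others.

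Among the 180 miRNAs, ordered by quantile-normalized log2 difference, mmu-miR-140-5p had 140 above it and 39 below it. mmu-miR-140-3p had 85 above and 94 below, mmu-miR-10a-5p 70 above and 109 below, and mmu-miR-196a-5p 62 above and 117 below. The nearest single miRNA was let-7f-5p for miR-140-5p (−0.52), miR-3963 for miR-140-3p (0.22), miR-199b-5p for miR-10a-5p (0.44) and miR-6908-5p for miR-196a-5p (0.54). This likeness is that of 1 value over 2 arrays, and between 23 and 39 other miRNAs lay within 0.25 of each member.

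**Figure D4:**
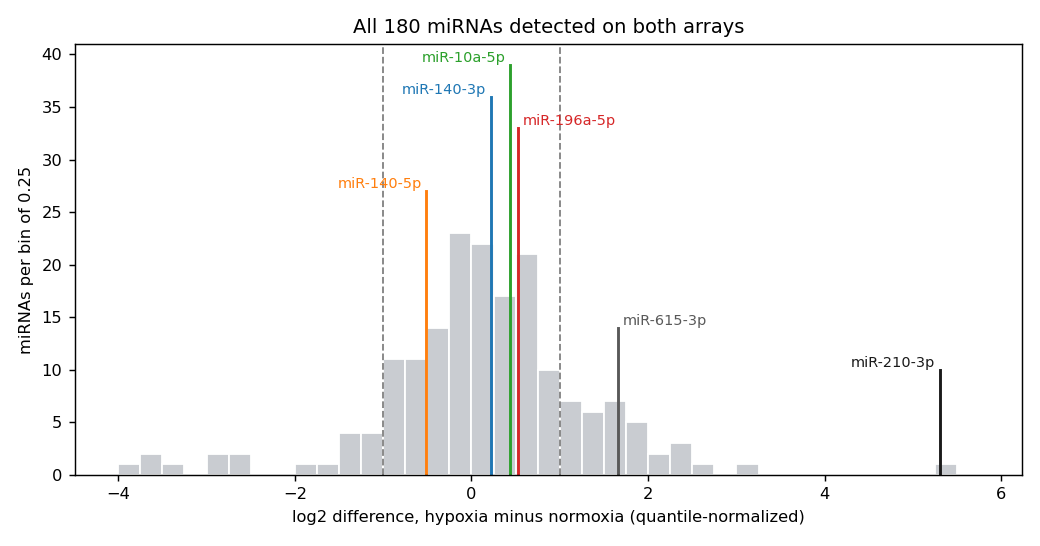
Histogram of the log2 difference (hypoxia minus normoxia, quantile-normalized) of the 180 miRNAs detected on both arrays, in bins of 0.25, with lines at the 4 detected members and at miR-615-3p and miR-210-3p for comparison; dashed lines mark 2-fold. The 4 members, from −0.52 to 0.53, lie in the central mass, miR-615-3p lies at 1.66 and miR-210-3p at 5.30.

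The other arms of these hairpins on the array, 6 in number (miR-455-5p, miR-10a-3p, miR-10b-3p, miR-196a-1-3p, miR-196a-2-3p and miR-196b-3p), were detected on neither array. This also held for most miRNAs, 1637 of all 1881. The remaining Hox-cluster miRNA, miR-615, lies inside Hoxc5, and mmu-miR-615-3p differed more than the members did.
mmu-miR-615-3p: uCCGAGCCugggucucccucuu
Its mature sequence, shown because its seed differs from those of the miR-10 and miR-196 families, lies at chr15:103014969-103014990 on the plus strand. Only 1 of its 4 probes was detected, with 42.7 ± 6.93 (n = 7 spots; 32.6 to 50.2) in normoxia and 98.3 ± 9.36 (n = 7; 89.7 to 114) in hypoxia. The spots of this probe did not overlap, but how many of all detected probes separate the arrays in this way was not counted. The log2 difference was 1.66 ± 0.10 (3.16-fold higher), or 2.30-fold without normalization, and ran from 1.20 to 2.13 across the 6 scalings. With normexp it was 0.86 and with no filter on dim probes 0.74, both under 2-fold. Each of these settings narrows it by construction. Normexp added an offset of 50, and the unfiltered value averaged in the 3 undetected probes, raised to the lowest detected signal of each array. The other 3 probes ran from −2.53 to 5.85, near background, and miR-615-5p was not detected. For reference mmu-miR-210-3p, the miRNA best known to follow hypoxia, was 39.4-fold higher.

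A list of 22 other miRNAs known from cartilage and bone gives the setting of miR-140. Of these 22, 9 were detected on both arrays, 12 on neither and miR-34a-5p in hypoxia only. Over all 1881 miRNAs the counts on both and on neither were 180 and 1637. Among the 9, 2 were at least 2-fold higher in hypoxia, miR-101a-3p (log2 difference 1.42 ± 0.063) and miR-214-3p (1.20 ± 0.091) after quantile normalization. Without normalization both were under 2-fold, at 0.94 and 0.81, and with scaling to the hybridization spike-ins miR-214-3p was too. The share of all 180 miRNAs at least 2-fold higher was 18.3%, so 2 of 9 is near the background. The other 7 were within 2-fold, and the lowest were miR-29b-3p at −0.57, with a range of −0.76 to 0.17 over the scalings, and miR-23b-3p at −0.076. The median of the 9 was 0.17, equal to that of all 180 miRNAs.

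The labelled cell type was checked against miRNAs known from mesenchymal and other cells. Of 5 mesenchymal miRNAs, 4 were detected on both arrays, miR-145a-5p on neither, and their summed probe signal was 949 in normoxia and 930.4 in hypoxia. These sums are not normalized, and the single miRNAs did not move alike. miR-199a-3p and miR-199a-5p read lower in hypoxia, the brighter probe of miR-199a-3p at 548 in normoxia and 464 in hypoxia. miR-214-3p and miR-143-3p read higher, the brighter probe of miR-214-3p at 112 and 196. Epithelial (6) and neural (2) miRNAs were not detected. Of 7 blood cell miRNAs, 3 were detected in normoxia and 1 in hypoxia, and their summed signal was 749.7 and 45.3. miR-451a, the miRNA of red blood cells, gave 448 ± 37.5 with its brighter probe in normoxia and 26.5 ± 3.14 in hypoxia. Of 3 muscle miRNAs only miR-206-3p was detected, with a summed signal of the list of 49.7 and 29.3, and the liver miRNA miR-122-5p was detected in normoxia only, at 78.5 ± 4.76 against 7.04 ± 4.25. The part of these blood and liver signals in the lower miR-140-5p reading was not tested.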

How the data were processed

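Mouse BMSC exosomes from normoxia and hypoxia were profiled on 1 array each. Feature Extraction 11.5.1.1 had been used by the authors to read the images. Its processed signal, as deposited, is an intensity on a linear scale after background subtraction and is not normalized across arrays. The value table repeats it (largest difference 0). The labels describe reverse transcription of total RNA, whereas the study's methods name a miRNA labelling kit. Spots carrying 1 or more of 4 outlier flags were dropped and the others averaged per probe. Probe means were quantile-normalized between arrays, as the study names, and the log2 difference was averaged over probes detected on both arrays. Python 3.11.15 (numpy 2.4.6, pandas 2.3.3) and, for normexp with an offset of 50, limma 3.58.1 in R 4.3.3 were used, and the scripts were checked on simulated data. The 2-fold threshold is that of the study's text. No saturated miRNA spot was found, and precision is limited by having 1 array per condition.

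Members, lists and alternatives were chosen with earlier results of these data known. Named miRNAs are the members, their other arms, the remaining Hox-cluster miRNA, the nearest miRNA to each detected member, the 2 highest and 2 lowest of the cartilage and bone list, the cell type lists and miR-210-3p. Sequences and neighbouring genes are from RefSeq on GRCm38.p6, where 1608 of 1881 array names had a mature sequence. The alternatives were 5 other scalings, another background correction, other treatments of spots and probes, other detection filters and the software's own summary per miRNA.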

Additional observations from a re-analysis of the deposited data

How the results depend on the processing

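No paired analysis was possible because normoxia and hypoxia have 1 array each, for which reason no array could be left out. The number of detected members (4 on each array), the absence of a member past 2-fold and the direction of the gap between the miR-140 arms were unchanged under every alternative run; the gap ran from 0.54 (normexp) to 0.89 (mean of all spots, flags ignored). Part of this was fixed in advance. Detection was set before scaling, so only other spots, another detection rule or the software's summary could change the number detected. A constant shift moves both arms alike, so it could not change the gap. The 4 detected members and miR-615-3p gave 60 values under these alternatives, of which 34 moved by less than the SD over spots, 26 moved further and 7 changed sign. With the 75th percentile over all probes, which falls among undetected probes, 58 of all miRNAs passed 2-fold upwards and 10 downwards, with a member median of 0.82. Without normalization there were 20 higher and 36 lower, with a member median of −0.10. The hybridization spike-ins gave 30 lower and a member median of 0.021. The software's summary gave 50 lower and a member median of −0.14. With normexp 11 were higher and 11 lower, and a filter that asked this of every spot of a probe (well above background) gave 9 lower, from fewer miRNAs. No normalization, the 75th percentile and the spike-ins differ only by 1 constant for every miRNA, which moves these counts and medians by construction. Normexp added an offset of 50, which narrows log2 differences by construction. Other sources of these shifts were not tested. Of the members' probes detected on both arrays, A_54_P1422 for miR-10a-5p and A_54_P2463 for miR-196a-5p lay closest to background, which limits both values.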
